A study of Arabidopsis thaliana with 4 samples.

Results

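COR27 (AT5G42900) and COR28 (AT4G33980) are a related pair of cold- and clock-regulated genes of Arabidopsis thaliana. Each is read by 1 probe set on the Affymetrix array, 249174_at for COR27 and 253322_at for COR28, so the pair makes up 2 of the 22810 probe sets measured and 2 of the 13350 genes that the probe table names. The files and the gene table name COR27 by its symbol and list COR28 by its locus only. The members were picked by gene assignment, with their higher signal in the lwd1lwd2 double mutant already known. The contrast between the genotypes is therefore given for them as a description, with no test.

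The series holds 4 arrays, 2 of wild-type plants and 2 of lwd1lwd2 double mutants, which are mutant in the genes of the WD-repeat clock proteins LWD1 and LWD2. The accession and the mutant alleles are not given in the labels. All plants were 31 days old, had been kept under days and nights of 12 h each, and gave their above-ground tissue at ZT5 to ZT9, that is 5 to 9 h after lights-on. The replicates are described as biological, without saying how many plants went into each.

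COR27 and COR28 encode small nuclear proteins that act in both the circadian clock and the response to cold. Their transcripts are induced by cold and by blue light, and in day-night cycles they are low in the morning and high towards the evening. The morning clock protein CCA1 represses them, and the LWD proteins are known to promote CCA1 expression. The COR27 and COR28 proteins in turn restrain evening clock genes such as TOC1 and PRR5, are removed in the dark through the COP1 ubiquitin ligase, and lower freezing tolerance.

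COR27 stood at a signal of 70.4 in wild-type replicate 1 and 56.4 in wild-type replicate 2. In the double mutant it stood at 1318 in replicate 1 and 1007 in replicate 2. Both mutant arrays were far above both wild-type arrays, and the gap between genotypes was much wider than that between replicates. Wild type had a mean signal of 63.4 ± 9.95 and the mutant one of 1162 ± 219.8 (SD, n = 2 each), giving a ratio of 18.3. Taken array by array, the ratio of mutant to wild type ran from 14.3, for the lowest mutant array over the highest wild-type array, to 23.4. On the log2(signal + 16) scale used for all fits here, the difference was 3.88 ± 0.23 (limma SE), or 14.8-fold. This scale adds 16 before taking the logarithm, which shrinks the change of dim genes.

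COR28 stood at 14.9 in wild-type replicate 1 and 55.0 in wild-type replicate 2, and at 458 and 349 in mutant replicates 1 and 2. The mutant arrays were again both above the wild-type arrays, but the wild-type arrays lay far apart. Wild type averaged 35.0 ± 28.4 and the mutant 403 ± 77.3 (SD, n = 2 each), giving a ratio of 11.5. Because of wild-type replicate 1, the ratio of single arrays ran from 6.34 to 30.7. Detection calls were not used, so the wild-type signals of either gene may be near background, and the ratios of raw signals rest on them. On the log2(signal + 16) scale the difference was 3.15 ± 0.38 (SE), or 8.87-fold. The lower wild-type value lay under the added 16, so this fold depends on the offset. With an offset of 64 the COR28 difference was 2.26 and that of COR27 3.26.

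**Figure D1:**
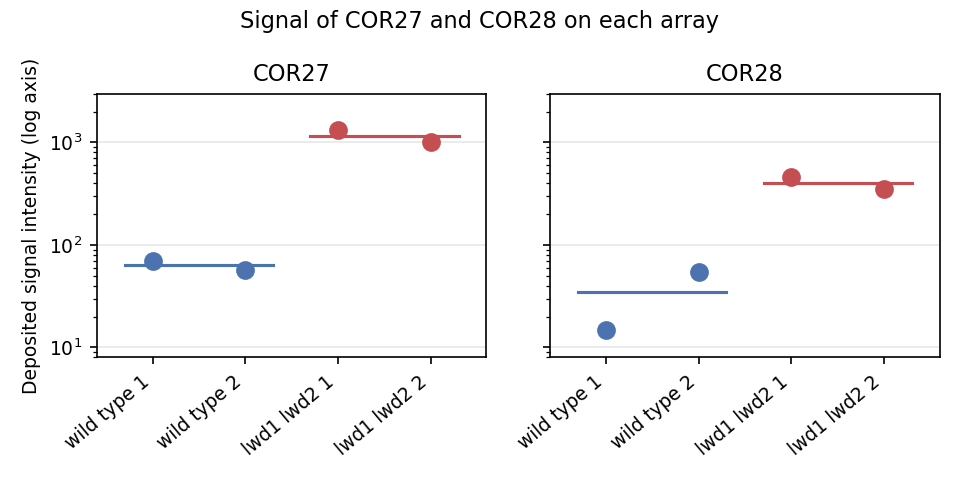
Deposited signal intensity (log axis) of COR27 and COR28 on the 2 wild-type (blue) and 2 lwd1 lwd2 (red) arrays. Points are arrays and lines are the means of n = 2. Both mutant points lie above both wild-type points for each gene, and the COR28 wild-type points (14.9 and 55.0) are the widest apart.

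From lowest to highest, COR27 was ordered wild-type replicate 2, wild-type replicate 1, mutant replicate 2, mutant replicate 1. COR28 was ordered wild-type replicate 1, wild-type replicate 2, mutant replicate 2, mutant replicate 1. The genes shared the order of the mutant arrays and had the opposite order in wild type. Mutant replicate 1 exceeded replicate 2 by a ratio of 1.31 for both genes. In wild type, COR27 was 1.25 times higher in replicate 1, and COR28 was 3.69 times higher in replicate 2.

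The step from wild type to mutant was alike for the genes in the arrays numbered 1 and unlike in those numbered 2. With replicate 1 of each genotype, the log2 difference was 3.95 for COR27 and 3.94 for COR28. With replicate 2, it was 3.82 for COR27 and 2.36 for COR28. The mean difference of COR27 exceeded that of COR28 by 0.74. Combining the replicate SDs of COR27 (0.23) and COR28 (0.63) as if they were independent gave 0.67. Both genes were read on the same arrays, so 0.67 is not the measured spread of this excess. Taken by replicate number, the excess was 0.0095 in replicate 1 and 1.46 in replicate 2. With wild-type replicate 1 left out the excess of the means was 1.46, and with wild-type replicate 2 left out 0.0072. On this scale, 1 wild-type COR28 value thus decided whether the genes differed in size of change. A comparison of their absolute levels is not made, since each probe set has its own response.

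The spread between replicates was taken within each genotype. It was read against other probe sets of like signal (mean within 1.3-fold of the gene's own mean in that genotype, controls left out). In wild type, the gap between the COR27 arrays was 0.26 on the log2(signal + 16) scale, against a median of 0.34 over 1604 probe sets. The COR28 gap was 1.20, against a median of 0.46 and a 90th percentile of 1.41 over 1761 probe sets, and 13.6% of them had a larger gap. A gap as wide as that of COR28 was thus in the upper part of the range at this low signal. In the mutant, the gap was 0.38 for each gene, against medians of 0.18 over 1548 probe sets for COR27 and 0.22 over 2693 for COR28. Of these, 17.9% and 25.2% had larger gaps.

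Both probe sets passed the filter that left out the 40% with the lowest mean, which set the limit at a signal of about 91.5. Both wild-type means lay under that limit, so each gene passed through its mutant arrays and had to be higher there. COR28 fell below the filter when either mutant array was left out, while COR27 stayed above it. Among 13647 tested probe sets, COR27 had the third largest rise (rank 3) and COR28 ranked 11. Among the 7369 tested probe sets with 1 named gene the ranks were 2 and 5. The arrays of the genotypes did not overlap for COR27 and COR28, as for 51.5% of all tested probe sets, 28.9% with the mutant higher. An adjusted p under 0.05 was reached by 5.57%, with 2.73% higher and 2.84% lower in the mutant. These shares are the background for the counts of other genes below, and the ranks and the separation of the pair follow from how it was chosen.

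Within the 20 named genes with the largest rises, a group set by its values and given as description only, 18 had the higher mutant signal in replicate 1. The median gap was 0.77 on the log2 scale and the gaps ran from −0.32 to 2.76. COR27 and COR28, at 0.38 each, were among the steadier of these genes, counting from the smallest gap in size (ranks 7 and 6 of 20). Beside probe sets of like mutant signal, their gaps were wider than the medians of 0.18 and 0.22. STZ, a zinc-finger transcriptional repressor, had a mutant gap of 1.16. In wild type COR28 had the next to widest gap of the 20 (rank 19), and COR27 stood at rank 8. Over all tested probe sets the median of replicate 1 minus replicate 2 was −0.01 in the mutant and −0.02 in wild type. What set mutant replicate 1 above replicate 2 for these genes was not tested.

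**Figure D2:**
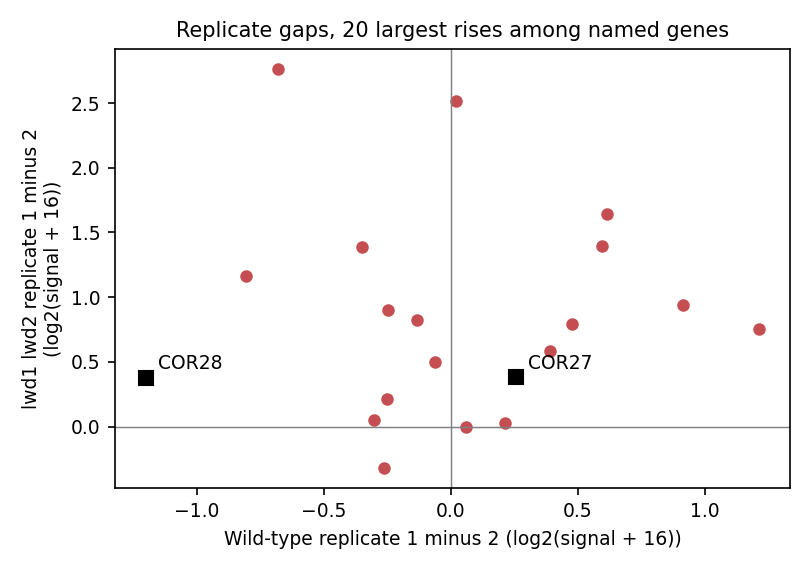
Replicate 1 minus replicate 2 on the log2(signal + 16) scale in wild type (horizontal) and lwd1 lwd2 (vertical) for the 20 named genes with the largest rises. Each point is a gene and black squares are COR27 and COR28, both at 0.38 on the vertical axis and at 0.26 and −1.20 on the horizontal axis.

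Other genes were ranked by how closely their profile over the 4 arrays followed that of each member, as the root mean square distance between log2(signal + 16) profiles centred on their own means. The genotype difference dominates this distance, so the ranking is descriptive. AT1G07050 was nearest to COR27, at a distance of 0.32. Its wild-type arrays read 89.0 and 109 and its mutant arrays 2601 and 2239. Next came STZ (0.48), EXO (0.55), which is a brassinosteroid-responsive gene of cell expansion, AT2G23910 (0.62) and COR28 itself (0.63). COR28 was thus the fifth nearest (rank 5) of 7368 genes' probe sets to COR27. Both members were taken with their large rises known, so their nearness to each other follows in part from that choice.

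STZ was nearest to COR28, at a distance of 0.41, with wild-type signals of 62.1 and 121 and mutant signals of 1965 and 868. Like COR28, STZ was lower in wild-type replicate 1 and higher in mutant replicate 1. The next were AT1G20030 (0.56), AT5G62360 (0.58), AT4G27280 (0.60) and AT2G38465 (0.61). COR27 stood at rank 7 for COR28. STZ was the gene that appeared among the 5 nearest of both members.

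**Figure D3:**
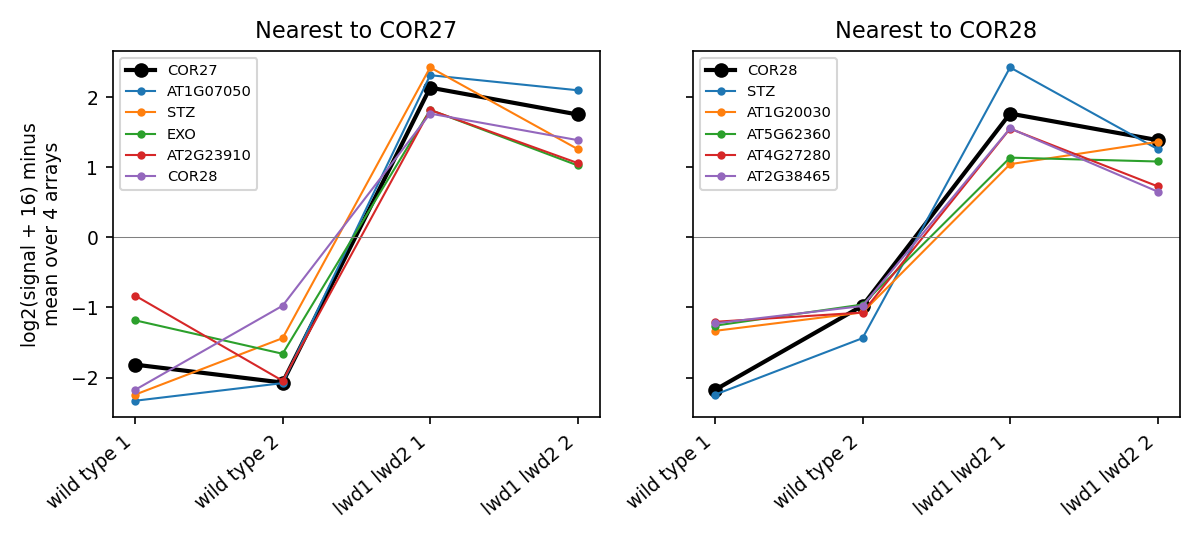
Profiles of COR27 and COR28 (black) and of the 5 genes nearest to each (colours) over the 4 arrays, as log2(signal + 16) minus the mean over the arrays. Lines join arrays to guide the eye. All profiles step up between the wild-type and mutant arrays, and STZ falls from mutant replicate 1 to replicate 2 more steeply than either member.

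The genes lying beside each member on its chromosome were examined to set the member in its surroundings, using gene order from the TAIR10.1 gene table. Of the 3 nearest tested genes on each side, 1 of 6 around COR27 and 1 of 6 around COR28 rose, and none fell, against 5.57% of all tested probe sets called. AT4G33985, 2 entries beyond COR28 in the table, had wild-type signals of 155 and 148 and mutant signals of 647 and 648. Its arrays within each genotype were nearly equal and the genotypes were well apart. It rose 3.97-fold (log2 difference 1.99 ± 0.20 SE, limma adjusted p = 3.9e-04), and its adjusted p ran from 4.1e-05 to 0.0088 over all alternatives. It was also among the 20 named genes with the largest rises (rank 18). On the other side of COR28, the adjacent gene AT4G33970 was dim, with wild-type signals of 2.28 and 2.75 and mutant signals of 2.71 and 24.3, and was not tested.

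Near COR27, THO5, a subunit of the THO complex of mRNA processing and export, lay 3 entries away and rose 1.89-fold. The wild-type arrays gave 483 and 408 and the mutant arrays 704 and 1032 (log2 difference 0.92 ± 0.23 SE, limma adjusted p = 0.0404). This call was lost without wild-type replicate 2 (adjusted p = 0.108) and without mutant replicate 2 (adjusted p = 0.201), and its adjusted p over the alternatives started at 0.0075. It was also lost after quantile normalization, after median centring, without the filter and with the replicate number as a block (adjusted p = 0.0633, 0.0728, 0.133 and 0.0627). The named genes closest to COR27, AT5G42910 and AT5G42880, were at signals between 6.34 and 35.4 and were not tested. The other tested neighbours had log2 differences between −0.41 and 0.55 and did not pass. Whether a probe set of either member also reads a neighbouring or related transcript was not tested.

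**Figure D4:**
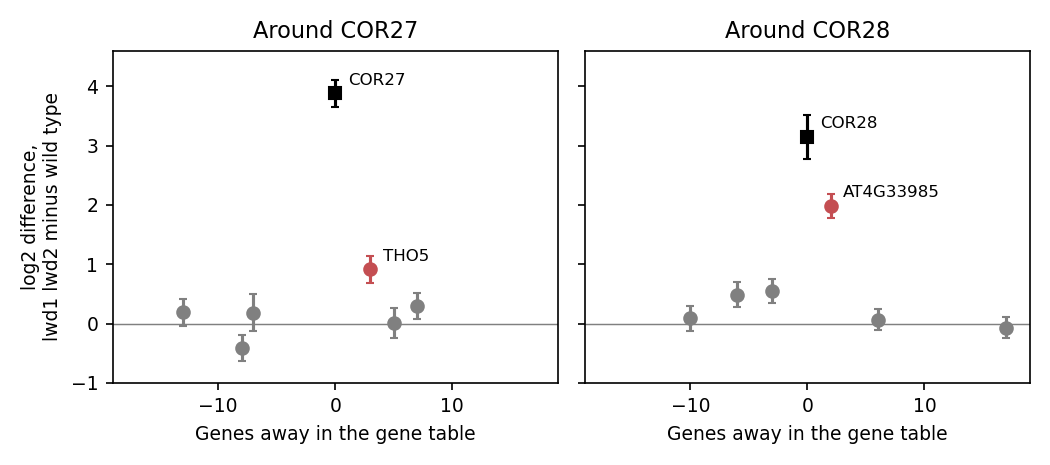
Log2 difference (lwd1 lwd2 minus wild type) of COR27, COR28 (black squares) and the 3 nearest tested genes on each side, by number of genes away in the gene table. Bars are limma SE and red points passed an adjusted p of 0.05. AT4G33985 (1.99) stands 2 entries from COR28, and THO5 (0.92) near COR27.

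Genes to set beside COR27 and COR28 were taken from 4 general lists, on the clock, light signalling, the cold response and flowering. A place on a list does not mean that a gene is known to act with the pair. Few of their members are named in the probe table used here. CCA1, TOC1, PRR5, COP1, HY5 and the CBF genes were not analysed here, nor were LWD1 and LWD2, so the genotype labels were not checked against the mutated genes. All samples come from 1 harvest window, so an earlier or later daily peak cannot be told apart from a higher or lower level. Likewise, in whole shoots more RNA per cell and more cells with the transcript cannot be told apart.

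Of 46 listed clock genes, 9 were named and 8 tested besides the pair, with 1 higher, 1 lower and 6 not past the threshold. GI, an evening gene that links the clock to photoperiodic flowering, had wild-type signals of 683 and 797 and mutant signals of 1689 and 1551. It rose 2.17-fold (log2 difference 1.12 ± 0.18 SE, limma adjusted p = 0.0060), beside the 3.88 and 3.15 of COR27 and COR28. AFR, an F-box component of light signalling through phytochrome A, fell from 2183 and 1715 to 755 and 903 (2.32-fold, limma adjusted p = 0.0056). AFR was counted on the clock list only, so the fall in the clock count is that of a light signalling gene. TIC, a nuclear clock regulator, had a log2 difference of 0.51 ± 0.23 (SE), which passed only without wild-type replicate 2 (0.85, limma adjusted p = 0.0484), and XCT one of 0.29 ± 0.25. The median over the 8 was 0.10, against 0.05 over all tested probe sets.

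Of 29 listed genes of light signalling, 4 were named and tested, 2 were lower in the mutant and none was higher. AT3G52740 fell from wild-type signals of 880 and 920 to mutant signals of 435 and 364, 2.21-fold (log2 difference −1.15 ± 0.19 SE, limma adjusted p = 0.0068). AT3G44450 fell from 2949 and 4038 to 1454 and 1711, 2.18-fold (−1.12 ± 0.20 SE, limma adjusted p = 0.0089). The gene table has no further name for either. Their direction was opposite to that of COR27 and COR28 on every pair of arrays. AT3G52740 passed in all 12 alternatives and AT3G44450 in 11 of 12, missing without the filter (adjusted p = 0.0541).

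HYH, a bZIP factor closely related to the light regulator HY5, had wild-type signals of 442 and 525 and mutant signals of 301 and 119. Its log2 difference of −1.27 ± 0.34 (SE) did not pass (limma adjusted p = 0.0581). It was −1.89 without mutant replicate 1 (adjusted p = 9.4e-05) and −0.65 without mutant replicate 2 (adjusted p = 0.206), and it passed without wild-type replicate 1 too (adjusted p = 0.0258). It also passed with each array centred on its median (−1.40, adjusted p = 0.0350) and with the lowest 60% left out (adjusted p = 0.0455). CUL4, the scaffold of a ubiquitin ligase that works with COP1, had a difference of −0.02 ± 0.18. The median over the 4 was −1.13.

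Of 42 listed cold genes, 6 were named and tested besides the pair, with 2 higher, none lower and 4 not past the threshold. STZ rose 12.8-fold (3.68 ± 0.37 SE, limma adjusted p = 3.1e-04), a difference between those of COR28 and COR27, with mutant arrays further apart than theirs. Its wild-type mean of 91.3 lay under the filter's limit, so STZ too was tested through its mutant arrays, where it had to be higher. COR15B, a chloroplast protein that protects membranes in freezing, rose 3.05-fold (limma adjusted p = 4.1e-04), with mutant signals of 4995 and 4950. The dehydrins COR47 and LTI30 had log2 differences of 0.51 ± 0.18 and −0.36 ± 0.23 (SE), neither past the threshold. The median over the 6 was 0.41.

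Of 18 listed flowering genes, 1 was tested. AT1G69570 had wild-type signals of 129 and 158 and mutant signals of 88.1 and 44.3, a log2 difference of −1.01 ± 0.33 (SE) that did not pass (limma adjusted p = 0.115, unadjusted p = 0.0117). It passed without mutant replicate 1 (−1.40, limma adjusted p = 0.0392). Its mutant mean of 66.2 lay under the filter's limit, so it was tested through its wild-type arrays and had to be lower in the mutant.

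**Figure D5:**
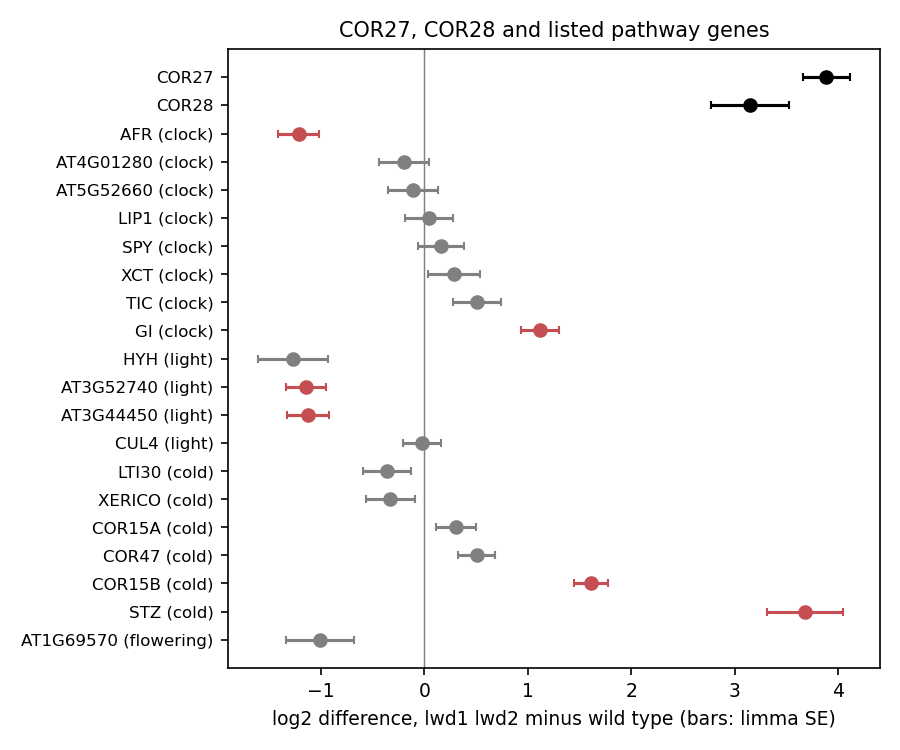
Log2 difference (lwd1 lwd2 minus wild type) of COR27 and COR28 (black) and of every tested gene of the clock, light, cold and flowering lists, with limma SE as bars. Red points passed an adjusted p of 0.05. COR27 (3.88), STZ (3.68) and COR28 (3.15) stand apart from the others, which lie between −1.27 and 1.61.

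The tissue label was set against marker genes. The 3 named green-shoot markers of 23 listed (LHCB4.1, RCA and PSAE-1) were bright on all arrays, with a summed signal of 77108 to 80201 in wild type and 60280 to 71610 in the mutant. These sums do not overlap, but neither do the arrays of 51.5% of all tested probe sets. LHCB4.1 by itself did overlap, with 26465 in mutant replicate 2 against 26386 in wild-type replicate 2. None of the 3 passed the test (limma, 0 at an unadjusted p under 0.05). The 3 named root markers of 9 summed to 1136 to 1909 in wild type and 963 to 1493 in the mutant. The 1 named flower marker of 10, AT5G07230, varied within each genotype, with wild-type signals of 156 and 33.1 and mutant signals of 300.0 and 40.9. No named marker was at 0, but detection calls were not used, so the dim signals do not show that a marker was expressed. The part of tissue composition in the levels of COR27 and COR28 was not tested.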

How the data were processed

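Total RNA (10 µg) was labelled with biotin by in vitro transcription for Affymetrix GeneChip arrays, per the labels' protocols. The authors deposited 1 linear signal intensity per probe set and array. Which software made them is not stated in the labels or file. The deposited intensity values share a mean of 500.05 on all arrays once 2% of probe sets are trimmed from either end, so they had been scaled. Array medians were 162 to 181. Detection calls were not used, and the number of arrays limits the precision.

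Values were taken as log2(intensity + 16). The 64 control probe sets and the 40% with the lowest mean were left out. limma 3.58.1 (R 4.3.3; lmFit, eBayes with trend, two-sided, Benjamini-Hochberg over 13647 probe sets) compared the genotypes, with 2 residual degrees of freedom. The p-values rest on the spread between these samples, moderated by that of the other tested probe sets at like mean signal. The labels do not say how the replicates were raised, so the p-values reach no further than these samples. Genes were named from the probe table, with symbols brought up to date by gene ID in TAIR10.1: 13513 probe sets have 1 gene, 503 several and 8730 none here. A listed gene was represented by its brightest probe set. The procedure was also run on simulated normal values with added differences of known size, as a check of the code. That run does not show how often calls are false in these data. Members and lists were chosen with earlier results of these data known. Named genes were the members, the 5 nearest profiles, list members past an adjusted p of 0.05 with the 2 largest that missed it, and chromosome neighbours past it; other neighbours were named for being closest and dim. Promoter motifs could not be searched because no sequences were used here. Alternatives were other offsets, scalings, filters, a robust prior, the replicate block and leaving out each array. Figures were drawn with matplotlib 3.10.9.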

Additional observations from a re-analysis of the deposited data

How the results depend on the processing

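COR27 and COR28 were higher in the mutant under every alternative run, with log2 differences of 3.26 to 4.17 and 2.26 to 3.75. Since their arrays do not overlap between genotypes, leaving out 1 array could not turn the direction. The offset moved them most. COR27 was at 4.17 with an offset of 1 and 3.26 with 64, and COR28 at 2.26 with 64, since their wild-type signals are low. Leaving out 1 array put COR27 minus COR28 between 0.0072 and 1.46. Without the filter, 258 probe sets passed instead of 760, and 1 light signalling gene instead of 2. The cause was not tested. The light signalling count was 3, with HYH added, in 4 alternatives (median centring, the lowest 60% left out, and leaving out replicate 1 of either genotype). Without mutant replicate 1, 1 flowering gene passed instead of 0, and it fell below the filter without either wild-type array. Centring each array on its median moved the median of all tested probe sets from 0.05 to −0.08 and the split of calls from 372 higher and 388 lower to 257 and 572. It lowered COR27 to 3.76 and COR28 to 3.02. Leaving out 1 array gave 561 to 1095 calls. The labels number the replicates alike in both genotypes without saying that a number marks a shared batch. The deviations of same-numbered arrays correlated at r = 0.09 across probe sets. With the replicate block, COR27 and COR28 stayed at 3.88 and 3.15, 676 probe sets passed, the list counts did not move, and THO5 lost its call.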
